A study of Mus musculus with 4 samples.

Results

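In mouse CD4+ conventional T cells that carried FLAG-tagged FoxP3 together with GATA1, 1949 FoxP3 peaks lay on a peak of RNA polymerase II (Pol II). They overlapped no peak called in cells that carried FLAG-FoxP3 alone. They were selected by measured overlap between the deposited peak lists. A site belonged to the set when its peak in the FoxP3+GATA1 list shared no base with any peak of the FoxP3 alone list and at least 1 bp with a peak of the Pol II list. Of the 9011 peaks of the FoxP3+GATA1 list, 64.8% met the first condition and 49.7% the second. Both were met by 21.6%, which are the 1949 sites, out of 31712 peaks in the 3 lists together. These shares describe the selection and carry no further meaning. The FoxP3 alone list was shorter, with 5069 peaks, and the depth of its library is unknown. A FoxP3 signal too weak to be called as a peak there cannot be told apart from none.

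The peaks came from chromatin immunoprecipitation with sequencing (ChIP-seq), which maps the DNA fragments held by a protein. All cells were primary lymph node cells of C57BL/6 mice aged 6 to 8 weeks, activated with beads carrying antibodies to CD3 and CD28 and given 20 U/ml IL-2. One culture carried FLAG-FoxP3 and GATA1 and was precipitated with anti-FLAG clone M2, and another carried FLAG-FoxP3 and was precipitated in the same way. A further sample, labelled as carrying FLAG-FoxP3 and GATA1, was precipitated with the Pol II antibody N20. A whole cell extract of cells with no transduced factor was the control behind all 3 lists, by the names of the lists. The description of the Pol II library names activated CD4 cells and no factor, so its match to the GATA1 culture rests on its title and on the label of the transduced factor. No Pol II library was labelled as carrying FLAG-FoxP3 alone, so the FoxP3 alone peaks were also set against this library. FoxP3 was expressed from an introduced construct in conventional T cells, GATA1 itself was not precipitated, and an anti-FLAG precipitation without FLAG-FoxP3 was not among the samples. Each group has 1 library, so no difference below has a replicate check or a test across samples, and intervals are 95% intervals that cover counting error over peaks only. Because whole cultures were precipitated, more cells with FoxP3 at a site and more FoxP3 per cell cannot be told apart.

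FoxP3 is the forkhead transcription factor that defines regulatory T cells, where it acts on genes of T cell activation together with partner proteins. GATA1 is a zinc-finger factor of the red blood cell and megakaryocyte lineages and belongs to the same family as GATA3, the member that T cells normally use. Pol II transcribes protein-coding genes and tends to accumulate close to their start sites, which is why its peaks served as the study's marker of such sites. The study asked whether a partner factor alters where FoxP3 is found on the genome. Regions are named by position only: the genes at them were not analysed here, nor were marker genes of CD4 T cells, because no annotation of their build was at hand. The positions are those of the lists, with 1 added to each start. The build itself is in doubt, since the submitters' processing notes name mm8 while the furthest peaks on chromosomes 1 and 7 end past those chromosomes in mm8 as generally known.

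The 1949 sites were spread over the scores of their list and thinned out only among its strongest peaks. Of 10 score classes of equal size, the lower 8 each held 203 to 243 sites, the ninth 138 and the highest 80. The deposited score is a measure of a peak's significance over the extract and is comparable only within a list. For the sites it ran from 70.77 to 1083 with a median of 186.2 (interval 181.9 to 189.6, quartiles 150.8 and 234.9). The median rank was 4944 of 9011. Peaks only with GATA1 away from Pol II had a median score of 175.4 (173.4 to 177.2), and peaks of both FoxP3 lists at Pol II had 269.4 (262.6 to 276.1). The sites thus stood slightly above the former and well below the latter, and none of these 3 intervals overlapped another. The sites made up 21.6% of the list, but only 1 of them was among its 100 best ranks and 38 were among the best 500. A score of 500 or more was reached by 40 of the sites, against 328 of the 2529 peaks at Pol II that both FoxP3 lists held. At the other end, 47 sites scored under 100. The sites covered 1200725 bp, with a median width of 588 bp (585 to 591), against 633 bp (624 to 644) for the peaks of both lists at Pol II and 579 bp (576 to 580) for peaks only with GATA1 off Pol II.

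**Figure D1:**
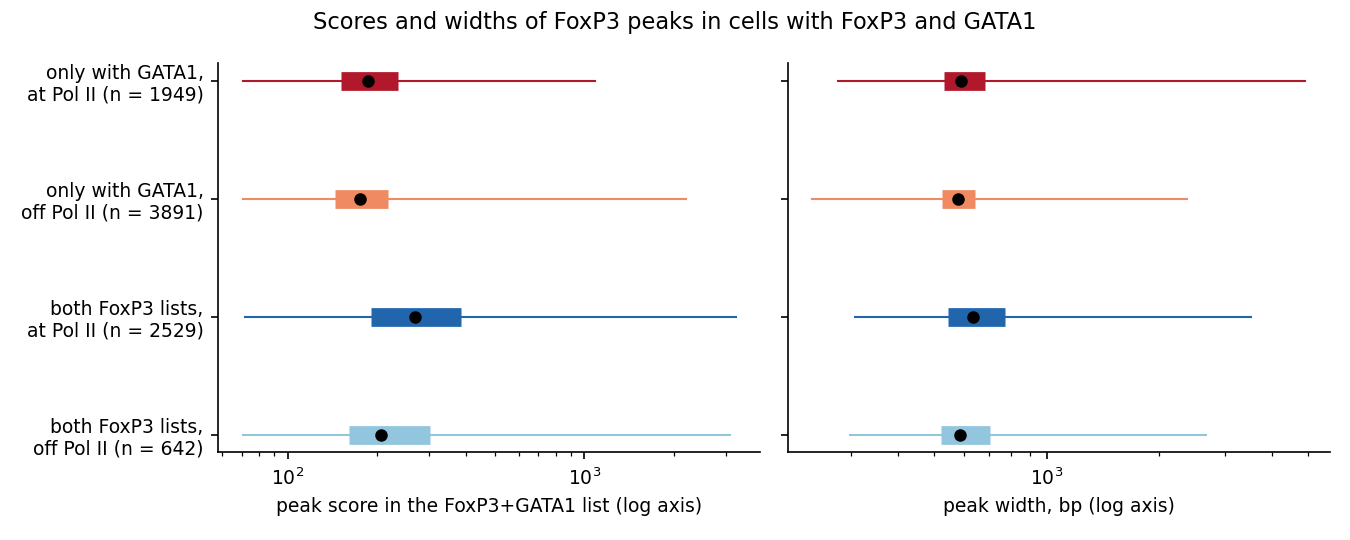
Peak score (left) and peak width in bp (right), both on log axes, for the 4 kinds of peak in the FoxP3+GATA1 list; points are medians, thick bars quartiles and thin lines the full range. The sites only with GATA1 at Pol II have a median score of 186.2, between the 175.4 of those off Pol II and the 269.4 of the peaks of both FoxP3 lists at Pol II.

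The 10 highest-scoring sites lay on 7 chromosomes, 3 of them on chromosome 8. The first, chr14:54911901-54912405, scored 1083 and ranked 100 in the list. Its Pol II peak scored 517.7, and 85.7% of its bases lay in that peak. Its nearest neighbour in the FoxP3 alone list, with a score of 1323 there, stood 4273 bp away, so this region was not free of FoxP3 in cells without GATA1.

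The second and the ninth sites were neighbours on chromosome 8. The peak at chr8:87649691-87650303 scored 1061 with a Pol II score of 522.6, and that at chr8:87655252-87656116 scored 730.6 with a Pol II score of 539.6. Both lay wholly inside their Pol II peaks, and the second of them ended on the same base as its Pol II peak. The FoxP3 alone list held no peak between them, and its nearest one was 12499 bp from the first. A further peak only with GATA1, at chr8:87650439-87650822 with a score of 211.9, fell 42 bp outside the first of these Pol II peaks and so outside the set.

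Some other sites of this group were far from any FoxP3 alone peak. At chr5:23213958-23215039 the site scored 847.3, its Pol II peak scored 683.7, and the nearest FoxP3 alone peak was 121599 bp away. At chrX:15051357-15052471 the score was 830.2, the Pol II score 449.9 and the gap 733988 bp. At chr13:99758781-99759512 the scores were 725.4 and 314.1 and the gap 306774 bp. In these regions the FoxP3 of cells without GATA1 left no peak near the site.

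The remaining 4 of the 10 sites had Pol II scores from 200.8 to 369.5, and their nearest FoxP3 alone peaks were 5180 to 28052 bp away. The peak at chr6:53033663-53035084 scored 934.2, while its Pol II peak scored 200.8 and ranked 3086 of 17632. The one at chr4:15162910-15164741 scored 809.1 on a Pol II peak of 263.2. That at chr8:124465992-124466412 scored 776.7 on one of 206.9. The site at chr6:73236699-73237897 scored 739.6 on a Pol II peak of 369.5. It extended past its Pol II peak, which held 59.8% of it, and the chromosome 4 site did so too, with 50.6% inside.

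Being found only with GATA1 went with less frequent Pol II overlap at every score level. The 9011 peaks were divided into 10 score classes of equal size, and within each class peaks only with GATA1 were set beside peaks that the FoxP3 alone list also held. Of the former, Pol II overlapped 27.9% (24.7 to 31.2) in the lowest class and 37.2% (31.0 to 43.8) in the highest, with the highest share, 41.3% (37.0 to 45.7), in the eighth. Of the latter, it overlapped 66.9% (59.4 to 73.6) in the lowest class and 83.8% (80.9 to 86.4) in the highest. The smallest gap between them was 37.1 percentage points (29.4 to 44.2), in the second class. Since both overlaps chose the sites, these shares are a description. Across the classes the sites formed a minority of the peaks only with GATA1, 33.4% (32.2 to 34.6) over the whole list. With peaks under a score of 100 removed from all lists, the smallest gap was 21.2 points (13.8 to 29.0).

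**Figure D2:**
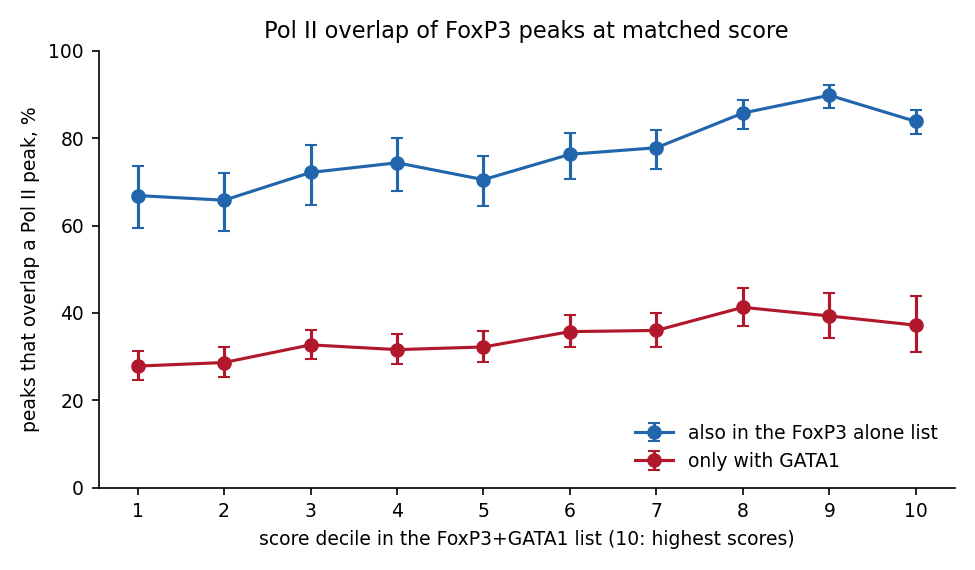
Share of FoxP3 peaks that overlap a Pol II peak, in percent, by score decile of the FoxP3+GATA1 list, for peaks only with GATA1 and for peaks also in the FoxP3 alone list; bars are Wilson 95% intervals. The share for peaks only with GATA1 stays between 27.9% and 41.3%, below the other share in all 10 deciles.

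The Pol II peaks under the sites were stronger than Pol II peaks in general and weaker than those under FoxP3 peaks of both lists. Their median score was 135.4 (132.0 to 138.5), against 117.6 (116.6 to 118.6) for all 17632 Pol II peaks and 107.0 (106.2 to 108.0) for the 12246 without any FoxP3 peak. For peaks of both FoxP3 lists it was 188.4 (182.2 to 193.0). For the 888 FoxP3 alone peaks at Pol II that no FoxP3+GATA1 peak overlapped, it was 142.6 (136.9 to 149.9). In the highest-scoring decile of the Pol II list lay 12.0% (10.6 to 13.5) of the sites, compared with 30.6% (28.8 to 32.4) of the peaks of both FoxP3 lists. In its lower 5 deciles lay 37.6% (35.5 to 39.8) and 19.3% (17.8 to 20.9). A Pol II peak with a score of 1000 or more lay under 5 of the sites. Such scores were rare in the whole Pol II list too: the lowest of these 5, at 1041, ranked 54 of 17632.

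FoxP3 score and Pol II score went together loosely among the sites. Spearman's rho over the 1949 sites was 0.32, over the 2529 peaks of both lists 0.50 and over the 888 FoxP3 alone peaks 0.23. Each is a description across sites that share 1 pair of libraries and 1 extract. The sites were divided into 4 groups of equal size by FoxP3 score. In the group of lowest scores the median Pol II score was 107.6 (102.3 to 112.2). It was 130.5 (125.5 to 136.1) and 138.7 (133.6 to 147.1) in the middle groups and 173.0 (160.9 to 181.1) in the highest. The share of sites on Pol II peaks of the top 2 deciles was 16.8% (13.8 to 20.4) in the lowest group and 41.7% (37.4 to 46.1) in the highest.

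**Figure D3:**
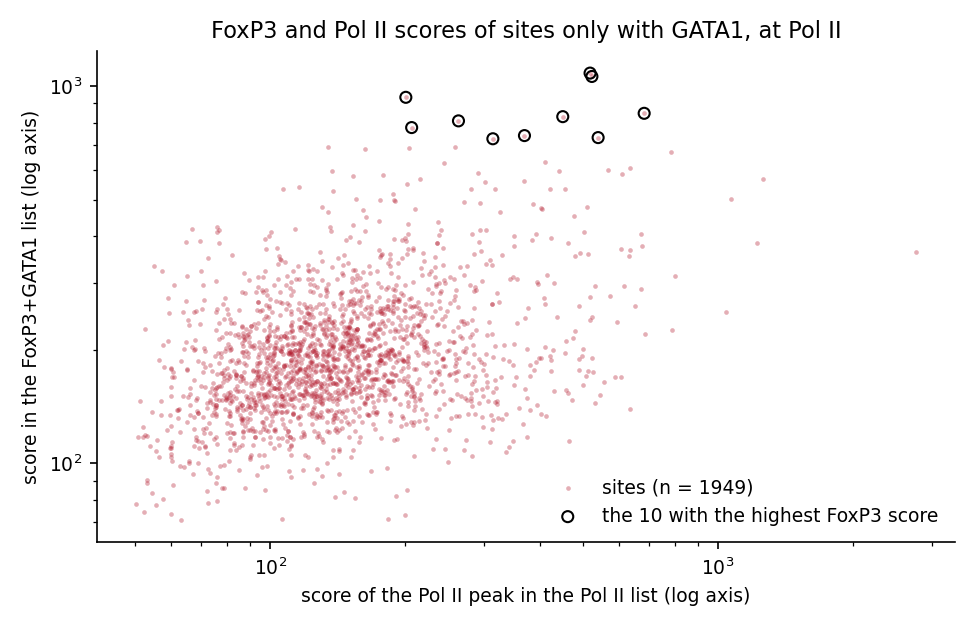
Score in the FoxP3+GATA1 list against the score of the overlapped Pol II peak, both on log axes, 1 point for each of the 1949 sites; rings mark the 10 sites with the highest FoxP3 score. The cloud is broad (rho 0.32), and the ringed sites have Pol II scores from 200.8 to 683.7.

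The 5 sites on the strongest Pol II peaks included cases where FoxP3 alone was close by. At chr8:125957064-125957544 the site scored 363.1 inside a 1505 bp Pol II peak with a score of 2762. The nearest peak of FoxP3 alone, scoring 2940 in its list, lay 125 bp away and within that Pol II peak. At chr13:67993627-67994665 the site scored 384.6, its Pol II peak 1224, and a FoxP3 alone peak of 527.9 lay 36 bp away. In both places FoxP3 was thus found in the same Pol II peak without GATA1, at an adjoining position. The other 3 had none so near: chr12:55875636-55876504 scored 566.7 for FoxP3 and 1262 for Pol II, and the gap was 178785 bp. The peak at chr3:124930780-124931753 had scores of 502.1 and 1066 with a gap of 11361 bp, and that at chr6:125826769-125827420 had 252.5 and 1041 with a gap of 239362 bp.

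Within the Pol II peaks the sites were centred. The median distance between the centre of a site and that of its Pol II peak was 94.5 bp (89.5 to 101), and the centre of 94.4% (93.2 to 95.3) of sites lay inside the Pol II peak. A median of 87.4% (85.6 to 88.9) of a site's bases was covered. The site lay wholly inside the Pol II peak in 28.4% (26.4 to 30.4) of cases and held the whole Pol II peak in 16.6% (15.0 to 18.3). Overlap of under 50% of the site was found for 6.11% (5.13 to 7.26), so few sites entered the set through a touching edge. Peaks of both FoxP3 lists were a little closer to the Pol II centre, with a median of 83.5 bp (79.5 to 87.5).

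Many sites began or ended within a few bases of where their Pol II peak did. An edge within 5 bp of the matching Pol II edge was found for 366 sites, or 18.8% (17.1 to 20.6), and an edge on the same base for 143, or 7.34% (6.26 to 8.58). Start edges fell 16.9 to the base at offsets of up to 5 bp and 3.75 to the base at offsets of 6 to 25 bp. For end edges these numbers were 19 and 4.25. Edges were thus densest within 5 bp of each other. This was not particular to the sites: 22.0% (20.4 to 23.6) of peaks of both FoxP3 lists at Pol II and 15.8% (13.5 to 18.3) of FoxP3 alone peaks there also shared an edge. The libraries share the extract and the peak caller, and the part of either in these edges was not tested.

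**Figure D4:**
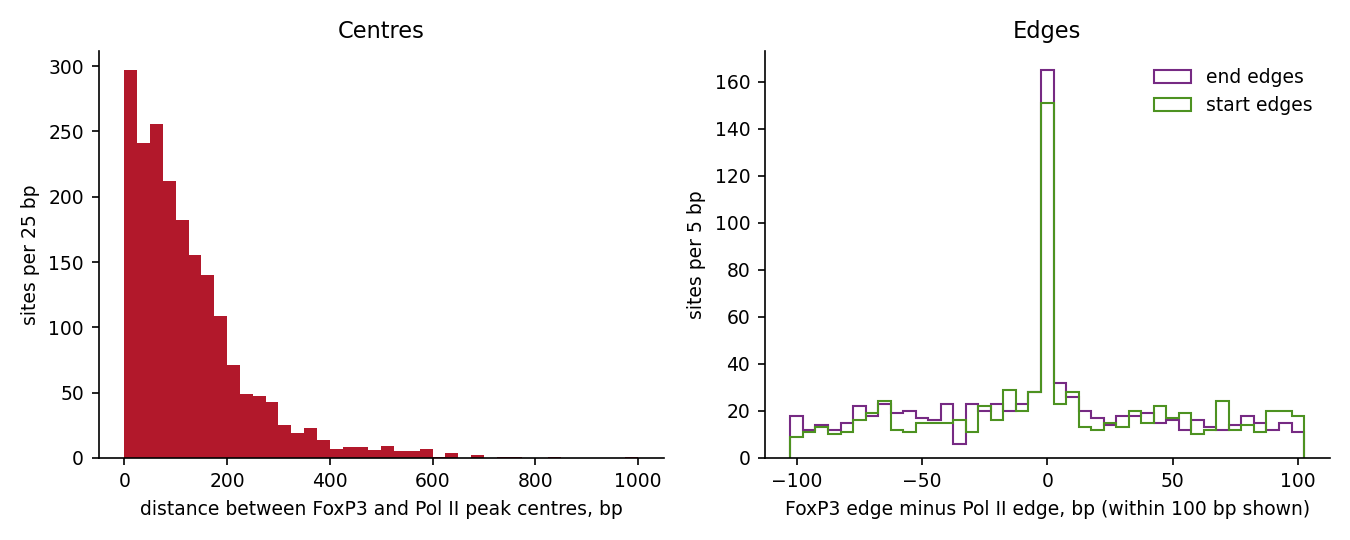
Left, number of sites per 25 bp of distance between the centres of FoxP3 and Pol II peaks; right, number of sites per 5 bp of offset between the start edges and between the end edges of the 2 peaks, within 100 bp. Centres are close (median 94.5 bp), and edges are densest near 0, with 16.9 start edges and 19 end edges to the base within 5 bp.

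Sites that shared an edge were narrower and lay on narrower Pol II peaks. Their median width was 556 bp (539 to 565), against 593 bp (590 to 596) for the other 1583 sites, and their Pol II peaks had medians of 564 bp (549 to 579) and 637 bp (624 to 656). Their FoxP3 score was slightly higher, at 198.5 (193.2 to 204.4) against 182.4 (178.7 to 187.2), while the Pol II scores, 133.5 (127.4 to 139.0) and 136.1 (131.8 to 139.7), had overlapping intervals. Both edges lay within 5 bp for 29 sites. They were identical for 5, named after their values were seen: chr1:72934519-72934951, chr16:20053324-20053761, chr4:27467091-27467479, chr16:86546368-86546754 and chr3:5401983-5402541. Their FoxP3 scores ran from 115.7 to 285.8 and their Pol II scores from 55.85 to 166.8. All but the chromosome 3 site, at 115.7, had a FoxP3 score of 230.8 or more, with ranks of 1978 to 3142 in the list. The nearest FoxP3 alone peak to any of them was 103559 bp away.

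Seen from the Pol II list, 11.1% of its peaks, or 1964, held at least 1 of the sites; 17 sites spanned 2 Pol II peaks and 2 Pol II peaks held 2 sites. Among the 14197 Pol II peaks without a FoxP3 alone peak, the share that held a site rose along the Pol II ranking, from 8.03% (6.81 to 9.44) in the lowest decile to 26.4% (23.5 to 29.5) in the highest. Over all Pol II peaks, those with FoxP3 alone included, it was 7.48% in the lowest decile, 15.0% in the seventh and the eighth, 14.6% in the ninth and 13.3% in the highest. The mirror image, the share of Pol II peaks without a FoxP3+GATA1 peak that held a FoxP3 alone peak, went from 2.70% (2.01 to 3.64) to 20.5% (17.8 to 23.5). It is a mirror in the FoxP3 lists only, since both shares use the Pol II list labelled as carrying FoxP3 and GATA1. As deposited, with FoxP3 lists of 9011 and 5069 peaks, the share with a site was above the mirror share in 10 of 10 deciles. With FoxP3+GATA1 peaks over 450 bp only, it was above in 9. With the FoxP3+GATA1 list reduced to its 5069 highest-scoring peaks, 1001 sites were left and the share was above the mirror share in 0 of 10 deciles. It then went from 2.19% in the lowest decile to 16.9% in the highest, against mirror shares of 4.74% (3.82 to 5.86) and 26.2% (23.4 to 29.1). The FoxP3 alone list was left whole there, so its peaks whose only partner was removed could come to count in the mirror share. Why the direction changed was not tested.

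Over the whole Pol II list, short peaks held sites most often. Of Pol II peaks of at most 500 bp and without FoxP3 alone, 33.6% (30.6 to 36.7) held a site, the highest share of any width class. The share was 10.2% (9.43 to 10.9) at over 500 to 600 bp and 18.3% (16.5 to 20.3) over 900 bp. Such short peaks were 8.03% (7.63 to 8.44) of the Pol II list but lay under 15.8% (14.3 to 17.5) of the sites. In the lower 5 deciles of Pol II scores the share in short peaks was 21.1% (17.5 to 25.3), against 7.80% (7.10 to 8.57) at over 500 to 600 bp and 23.2% (15.4 to 33.4) over 900 bp, so there the short peaks were not the highest class. In the upper 5 deciles the shares were 43.7% (39.4 to 48.0) and 21.6% (19.2 to 24.1). The 308 sites on short Pol II peaks had a median FoxP3 score of 194.2 (184.2 to 199.3) and a median centre distance of 57.5 bp (49 to 66.5). An edge was shared by 38.3% (33.1 to 43.9) of them and by 15.1% (13.5 to 16.9) of the sites on longer Pol II peaks. Short Pol II peaks without a FoxP3+GATA1 peak held a FoxP3 alone peak in 9.76% (7.75 to 12.2) of cases, against 4.59% (4.09 to 5.16) at over 500 to 600 bp and 14.2% (12.6 to 16.0) over 900 bp. Of all short Pol II peaks, those with FoxP3 alone included, 30.5% (28.1 to 32.9) held a peak of both FoxP3 lists and 21.8% (19.7 to 24.0) a site. Of the FoxP3 peaks of both lists at Pol II, 17.0% (15.6 to 18.6) were on short Pol II peaks. At equal length of the FoxP3 lists, 18.7% (16.3 to 21.4) of short Pol II peaks without FoxP3 alone held a site.

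**Figure D5:**
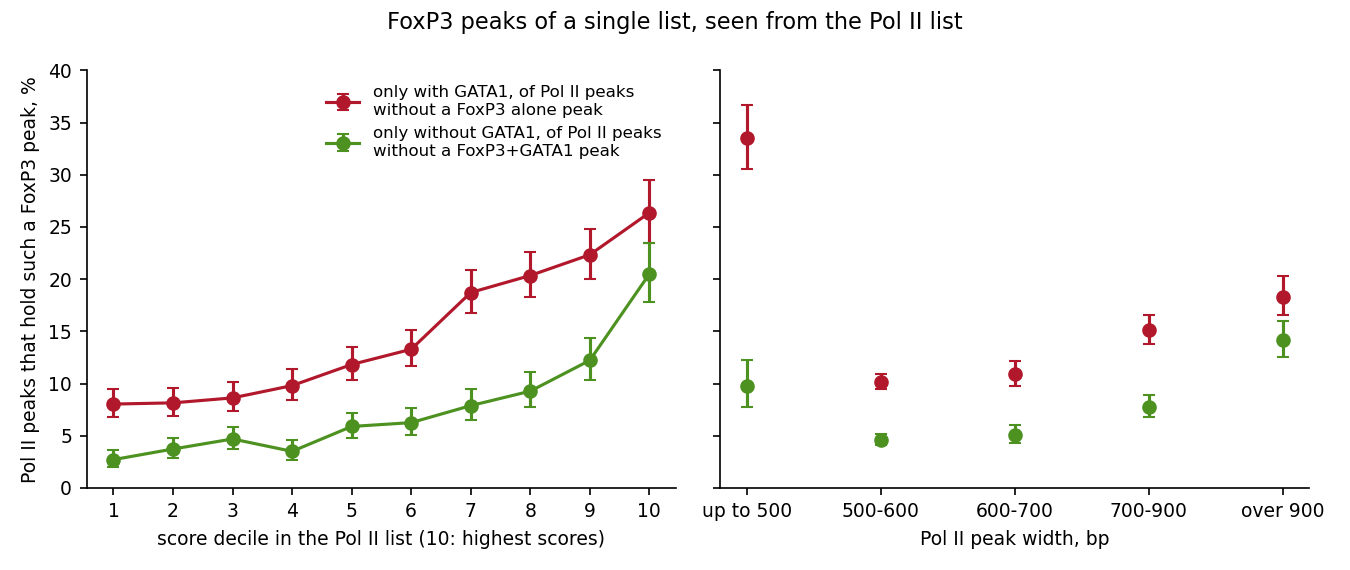
Percent of Pol II peaks that hold a FoxP3 peak found only with GATA1 (of Pol II peaks without a FoxP3 alone peak) or only without GATA1 (of Pol II peaks without a FoxP3+GATA1 peak), by Pol II score decile (left) and by Pol II width in bp (right); bars are Wilson 95% intervals. With the lists as deposited, the first share climbs from 8.03% to 26.4% with Pol II score and is 33.6% for Pol II peaks of at most 500 bp. Both shares use the Pol II list labelled as carrying FoxP3 and GATA1.

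FoxP3 alone peaks were usually far from the sites. The median gap to the nearest was 131127 bp (122276 to 141135), and 41.8% (39.6 to 44.0) of sites had one within 100 kb. Closer by, sites exceeded the peaks only with GATA1 off Pol II: 8.57% (7.41 to 9.89) against 5.40% (4.73 to 6.15) had a FoxP3 alone peak within 10 kb, and 1.95% (1.42 to 2.67) against 0.591% (0.394 to 0.886) within 1 kb. Only 9 sites had one within 100 bp. The Pol II peak of 19 sites, or 0.975% (0.625 to 1.52), also held a FoxP3 alone peak at another position. The rule bars a FoxP3 alone peak on the site itself, so this low share is not free of the selection. How far the rule sets it was not tested.

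The sites nearest to a FoxP3 alone peak mark the boundary of the set. At chr3:51314245-51314884, with a score of 148.8, the FoxP3 alone peak began 28 bp away. The gap was 33 bp at chr14:119536948-119537542, 36 bp at the chromosome 13 site already described, 60 bp at chr2:116945680-116946522 and 62 bp at chr15:87455424-87456006. The 4 sites other than that on chromosome 13 scored 110.4 to 148.8. Just outside the set, FoxP3+GATA1 peaks at Pol II shared 23 bp with a FoxP3 alone peak at chr10:126497033-126497601, 30 bp at chr12:112513101-112513683 and 35 bp at chr5:122161956-122162471. They shared 51 bp at chr7:146768042-146768651 and 63 bp at chr5:116182038-116182593. These 5 peaks scored 133.9 to 183.2, much like the sites just inside.

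At the Pol II boundary, chr1:156946114-156946721 shared a single base with its Pol II peak, and chr12:21422694-21423251 shared 2. The next shared 14 bp (chr2:127073893-127074483), 18 bp (chr8:124431269-124431830) and 28 bp (chr6:90695468-90696024), and the 5 scored from 144.1 to 176. Just outside, the gap to Pol II was 1 bp at chr4:126991432-126992113, where the peaks abut with no base between them. It was 9 bp at chr4:139155409-139156062 and 11 bp at chr11:87861243-87862413. It was 29 bp at chr3:103166202-103166794 and 42 bp at the chromosome 8 peak given above. The chromosome 11 peak, with a score of 412.8, was the strongest of these 10 boundary peaks. The lowest-scoring sites were chr15:85008000-85008395 (70.77), chr7:27564411-27565220 (71.08) and chr14:69903097-69903675 (71.35), followed by chr6:44742572-44743467 (72.92) and chr16:93769022-93769737 (73.64). They lay on Pol II peaks with scores of 59.96 to 200.2.

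Few sites shared their Pol II peak with another FoxP3+GATA1 peak: 14 did, or 0.718% (0.428 to 1.20). The median width was 588 bp for the sites and 609 bp for their Pol II peaks, and the part of width in this share was not tested. No such share for other FoxP3+GATA1 peaks stands beside it, so it is not read as particular to the sites. Of the Pol II peaks, 2 held 2 sites, both on chromosome 17. The one at chr17:28621953-28623451, with a Pol II score of 490.3, held sites with scores of 176.6 and 189.6. The one at chr17:71765368-71765954, with a Pol II score of 138.3, held sites with scores of 267.0 and 177.9. A site and a FoxP3 peak of both lists met in 10 Pol II peaks. In 13, a site met a FoxP3 alone peak that no FoxP3+GATA1 peak overlapped.

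Joined across gaps of at most 10 kb, 102 of the sites formed 49 groups, 45 of 2 and 4 of 3 sites, and with gaps of up to 50 kb there were 118 groups. These numbers, too, have no count for other FoxP3+GATA1 peaks beside them. The strongest group of 3 lay at chr13:67985570-67994665, with FoxP3 scores of 234.3 to 688.2 and Pol II scores of 122.3 to 1224, and also held 1 FoxP3 alone peak. The groups at chr2:15941683-15950979 (scores 324.8 to 535.3), chr18:82861546-82869418 (164.0 to 596.2) and chr8:44396834-44405893 (101.2 to 452.9) held no FoxP3 alone peak. These 3 groups each held 3 FoxP3 peaks with GATA1 and 3 or 4 Pol II peaks. The next in order was the pair on chromosome 8 from 87649691 to 87656116. Counting the overlapped Pol II peak itself, 25.3% (23.5 to 27.3) of sites had 2 or more Pol II peaks within 10 kb. Counted alike, the share was 31.0% (30.3 to 31.7) of all Pol II peaks and 34.1% (33.3 to 35.0) of those without FoxP3. It was 20.5% of peaks of both FoxP3 lists at Pol II and 26.4% of the 888 FoxP3 alone peaks there. For 4 or more the shares were 3.13% (2.44 to 4.0) of sites and 3.08% (2.84 to 3.35) of all Pol II peaks. They were 1.82% of peaks of both FoxP3 lists and 1.69% of the FoxP3 alone peaks.

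The widest site, 4913 bp at chr11:3000015-3004927, was among the weakest, with a score of 88.62, and lay inside a 5256 bp Pol II peak with a score of 125.5. The 4 next widest scored far higher: the chromosome 4 and chromosome 6 sites given above (1832 and 1422 bp), chr11:60392088-60393611 (1524 bp, score 630.9) and chr1:180266906-180268290 (1385 bp, score 372.1). Their Pol II peaks scored 200.8 to 411.4.

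By chromosome, the sites made up from 26.4% (21.7 to 31.7) of peaks only with GATA1, on chromosome 3, to 38.7% (32.9 to 44.8), on chromosome 17, among the autosomes. On chromosome X it was 33.9% (26.1 to 42.6), and on chromosome Y 2 of 7. The interval of chromosome 3 overlapped those of all other autosomes except 10 and 17. Chromosome 11, which is rich in Pol II peaks, was the lowest of the chromosomes in the share of Pol II peaks without FoxP3 alone that held a site, at 9.61% (8.11 to 11.4). Chromosome 14, at 18.5% (15.3 to 22.1), was the highest autosome.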

How the data were processed

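The authors deposited 1 list of peaks for each of the 3 precipitated libraries, called separately, with chromosome, start, end, name and score. Bowtie, MACS 1.4.0rc2 and FastQC, with the build mm8, appear per the submitters' processing notes; roles, settings and thresholds are not stated there. The score deposited by the authors depends on the depth of library and extract, so scores were compared within a list only. Without read counts the depth is unknown. Furthest peaks passed the last gene of the GRCm38.p6 table on 8 of 21 chromosomes, so no gene, promoter or sequence was taken from it.

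Overlaps were counted from 1 bp, and where a site met 2 Pol II peaks the one with most shared bases was used. Gaps are differences between the positions of the facing edges, so peaks that abut have a gap of 1 bp. Python 3.11.15, numpy 2.4.6, pandas 2.3.3 and scipy 1.17.1 were used, and pair counts equalled those of bedtools 2.31.1. Planted peaks were all put in their class in a check on simulated data. Shares carry Wilson and medians order-statistic intervals, and a difference of shares carries Newcombe's interval for independent shares. The share with a site and the mirror share are not independent: the 12246 Pol II peaks without any FoxP3 peak count in both. The interval of their difference is therefore only approximate. Named regions were the 10 highest-scoring sites, the 5 widest, the 5 on the highest Pol II peaks, the 5 nearest each boundary on either side, the 5 lowest, the 5 Pol II peaks with most sites and the 5 largest groups. After the 2 on chromosome 17, the Pol II peaks with most sites are those of the 3 highest-scoring sites. Members, lists and rules were chosen with earlier results of these data known. The planned gene lists were not used.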

Additional observations from a re-analysis of the deposited data

How the results depend on the processing

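No paired analysis was possible because there was a single library per group. Across 14 alternatives, 110 of 143 recomputed values stayed within their interval or, for counts, within 1.5 times, and 3 reversed; the number of sites ran from 1001 to 1924. With the FoxP3+GATA1 list reduced to the length of the FoxP3 alone list, the sites numbered 1001, with a median score of 232.5, width of 592 bp and Pol II score of 151.4. There 0.300% had another FoxP3+GATA1 peak in their Pol II peak, 21.6% shared an edge, 18.7% of short Pol II peaks held a site, and the shares in the lowest and highest Pol II deciles were 2.19% and 16.9%. The mirror shares of FoxP3 alone were there 4.74% and 26.2%, so the share with a site minus the mirror share, 5.33 points in the lowest and 5.87 in the highest decile as deposited, turned to -2.55 and -9.27, and was positive in 0 of 10 deciles. With scores of at least 100 in all lists, the median scores were 195.2 for FoxP3 and 155.7 for Pol II (135.2 over the Pol II peaks as deposited), the lowest decile 10.2%, short Pol II peaks 38.4% and the smallest gap in Pol II share 21.2 points. With FoxP3+GATA1 peaks over 450 bp, the median score was 179.5, width 595 bp and centre distance 102 bp, 15.9% shared an edge and 26.8% of short Pol II peaks held a site; in the highest decile the mirror share was 26.1% and the difference -0.750 points (-4.96 to 3.47). With Pol II peaks over 500 bp only, an alternative chosen after seeing the data, the centre distance was 104.2 bp, 15.1% shared an edge and the smallest gap was 28.8 points. The results on edges, short Pol II peaks, mirror shares and matched score were also chosen after seeing the data. The centre distance was 88.5 bp when the centre had to lie in the Pol II peak. With no FoxP3 alone peak within 500 bp, 0.104% of sites had one in their Pol II peak and 0.260% another FoxP3+GATA1 peak. Groups of sites numbered 118 at a gap of 50 kb. These changes follow in part from the settings' own construction; the cause was otherwise not tested.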
